A study of Mus musculus with 8 samples.

Results

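The genes that drive cells through division were measured in pancreas of mice in which Sel1L, the partner of the Hrd1 ubiquitin ligase in the degradation of misfolded endoplasmic reticulum (ER) proteins, had been deleted. The list held 40 genes of the cell cycle and of DNA replication: 5 cyclins of the G1 phase, 10 genes of replication and nucleotide supply, and 25 genes of G2 and mitosis, called mitotic genes here. A gene entered with an array feature annotated to it alone, and where a gene had several, the feature with the highest mean was kept. This gave 33 of the 40 genes, among 18820 genes in all: 4 G1 cyclins, 9 replication genes and 20 mitotic genes. Ccne2, Tyms, Ube2c, Kif20a, Nusap1 and Foxm1 had only features shared with another gene, and Ccnb1 had no feature listed under its symbol, so none of these 7 has a value here.

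The 8 whole-transcript arrays fell into 4 of Sel1L knockout pancreas and 4 of wild type pancreas, from animals of C57BL/6N embryonic stem cells crossed to C57BL/6J. Per the labels' protocols, animals of both groups carried Sel1l with exon 6 floxed on both alleles, and the knockout animals also carried an actin-promoter driven fusion of Cre recombinase and the estrogen receptor (ERCre), which their wild type littermates lacked. All received tamoxifen, the drug that activates the fusion, at 8 to 20 weeks of age, once a day for 3 days at 5 mg/ml and 5 μl per g of body weight. Loss of Sel1L and activity of Cre cannot be told apart in this design, and an actin promoter is active outside the pancreas. The labels number the samples 1 to 4 but do not say that each is a separate animal, so a p-value measures only how these samples varied, and that variation may be technical.

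Cells enter division when D-type cyclins (Ccnd1, Ccnd2, Ccnd3) and then E-type cyclins (Ccne1, Ccne2) activate cyclin-dependent kinases (CDKs) that release E2F transcription factors from the retinoblastoma protein. E2F factors switch on genes of replication, and FOXM1-MYB complexes act later on mitotic genes. CDK inhibitors such as p21, encoded by Cdkn1a, hold this sequence back. The DREAM complex represses cell cycle genes in cells at rest. Adult acinar cells, the bulk of the pancreas, rarely divide.

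Promoter sequences from RefSeq (GRCm38.p6) describe these groups further. The members are known genes of these phases, so shared motifs may follow from their choice. Windows of 250 bases before to 50 after a start site were present for 31 of the 40 genes, some with several starts, and were searched on both strands for TTTGAA, the cell cycle homology region (CHR) bound by DREAM, for CCAAT, and for the E2F-type motifs TTCCCGC and TTGGCGC. None of the 3 windows of G1 cyclins held TTTGAA or an E2F-type motif. TTTGAA was found in 16 of 21 mitotic windows (76.2%) and in 1 of 10 replication windows (10%), against 17.9% of all 32851 promoter windows. An E2F-type motif was found in 3 mitotic windows (14.3%) and 6 replication windows (60%), against 6.81% of all windows. CCAAT was present in 90.5% of mitotic and 90% of replication windows, against 37.4% of all windows. A match describes the letters in a window and does not show that a factor binds there. Only these exact strings were searched, so a window without a match may still hold a site of another sequence. The stretches below are the 150 bases before the start, 5′ to 3′ on the strand of the gene, with motif matches on either strand in capitals (ATTGG is CCAAT, and TTCAAA is TTTGAA, read on the other strand). Mcm6, Pcna and Ccne1 are shown because they passed the test described below, and Mki67, Cdk1 and Top2a as widely used marks of dividing cells. Birc5, the mitotic gene that passed, is not shown, and its window held none of the 4 motifs.
Mcm6: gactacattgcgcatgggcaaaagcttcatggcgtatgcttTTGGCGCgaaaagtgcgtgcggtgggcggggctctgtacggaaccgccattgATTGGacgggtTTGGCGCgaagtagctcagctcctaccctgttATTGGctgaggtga
Pcna: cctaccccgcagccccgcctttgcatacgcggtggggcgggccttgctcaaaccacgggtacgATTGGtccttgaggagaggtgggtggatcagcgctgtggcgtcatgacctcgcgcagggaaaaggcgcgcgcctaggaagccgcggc
Ccne1: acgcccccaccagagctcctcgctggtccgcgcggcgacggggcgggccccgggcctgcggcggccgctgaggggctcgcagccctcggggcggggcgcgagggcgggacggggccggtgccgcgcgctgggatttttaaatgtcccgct
Mki67: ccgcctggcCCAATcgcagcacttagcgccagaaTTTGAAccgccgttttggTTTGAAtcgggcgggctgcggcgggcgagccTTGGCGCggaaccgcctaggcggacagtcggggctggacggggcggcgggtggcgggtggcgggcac
Cdk1: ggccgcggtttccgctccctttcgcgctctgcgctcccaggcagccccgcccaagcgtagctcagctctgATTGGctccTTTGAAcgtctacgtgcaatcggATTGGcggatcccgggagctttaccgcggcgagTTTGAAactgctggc
Top2a: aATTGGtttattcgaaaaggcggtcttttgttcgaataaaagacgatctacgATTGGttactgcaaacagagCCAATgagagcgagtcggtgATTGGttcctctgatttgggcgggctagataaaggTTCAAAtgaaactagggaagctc
These lie at chr1:128359706-128359855 (minus strand) for Mcm6, chr2:132253181-132253330 (minus) for Pcna, chr7:38107491-38107640 (minus) for Ccne1, chr7:135716380-135716529 (minus) for Mki67, chr10:69352913-69353062 (minus) for Cdk1 and chr11:99024190-99024339 (minus) for Top2a. The stretch of Mcm6 held TTGGCGC at 2 places, those of Mki67 and Cdk1 each held TTTGAA at 2 places, and that of Ccne1 held none of the 4 motifs. Ccnd1 and Ccnd2 had no window in the table.

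**Figure D1:**
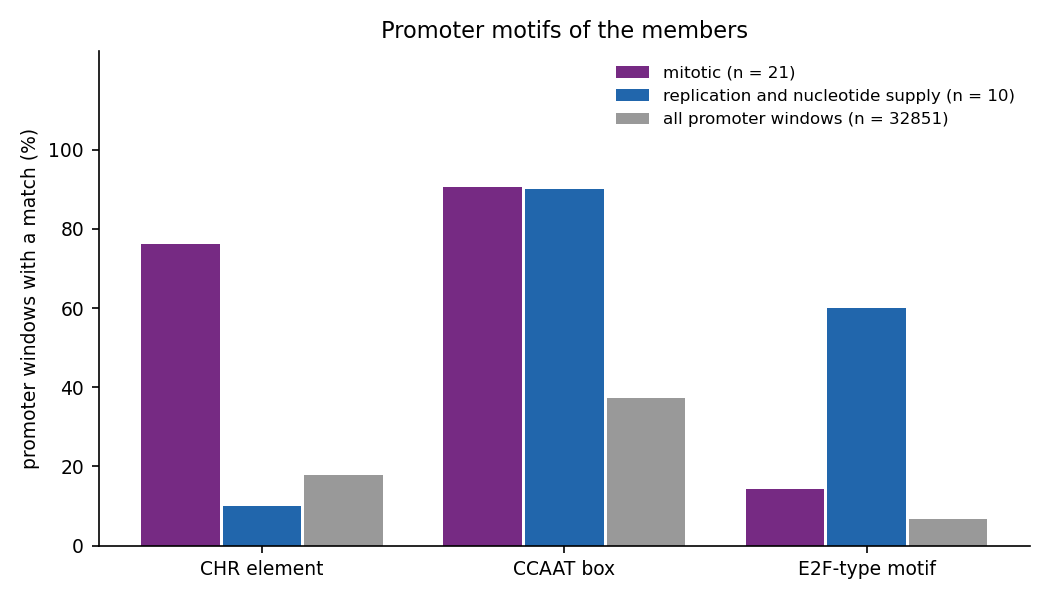
Share of promoter windows (per cent, vertical axis) with a CHR element, a CCAAT box or an E2F-type motif, for 21 mitotic windows, 10 replication and nucleotide supply windows and 32851 windows of all genes. The CHR element was found in 76.2% of mitotic windows and the E2F-type motif in 60% of replication windows.

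Sel1l itself was lower on the knockout arrays, at 11.62 ± 0.114 against 12.38 ± 0.0105 (SD, n = 4 each), with a difference of -0.76 on the log2 scale. The 7 acinar markers measured of 10 averaged 12.51 to 12.59 on knockout arrays and 12.77 to 12.92 on wild type arrays, near the top of the arrays' range. Wild type replicate 2 stood apart: it correlated with the other wild type arrays across genes at 0.979 to 0.987, where these correlated with each other at 0.991 to 0.992. As a rough level of signal near background, 1157 olfactory and vomeronasal receptor genes had a median of 2.62 and a 95th percentile of 3.84. Of the 33 members, 30 lay above that percentile in their mean over the 8 arrays, and the other 3, the mitotic genes Bub1, Cenpe and Prc1, did not.

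Most cell cycle genes did not pass the test between the groups, and those that did were at the entry to the cycle or in replication, with 1 mitotic gene. A gene was called changed at a limma Benjamini-Hochberg adjusted p under 0.05 over all 18820 genes. Of the 33 members 6 were called (18.2%), where 28.7% of all genes were. Ccnd1, Ccnd2, Mcm6 and Pcna rose, and Ccne1 and Birc5 fell. The groups did not overlap for these 6 of the 33 members (18.2%), against 32.2% of all genes. The median difference, knockout minus wild type on the log2 scale, was 0.28 for the G1 cyclins, 0.09 for the replication genes and -0.09 for the mitotic genes, against -0.04 for all genes. By group, 3 of 4 G1 cyclins (75%), 2 of 9 replication genes (22.2%) and 1 of 20 mitotic genes (5%) were called. Of these shares only that of the G1 cyclins lay above the 28.7% of all genes, and it rests on 4 genes. Both replication calls were lost under the 3 other normalizations, as given below.

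**Figure D2:**
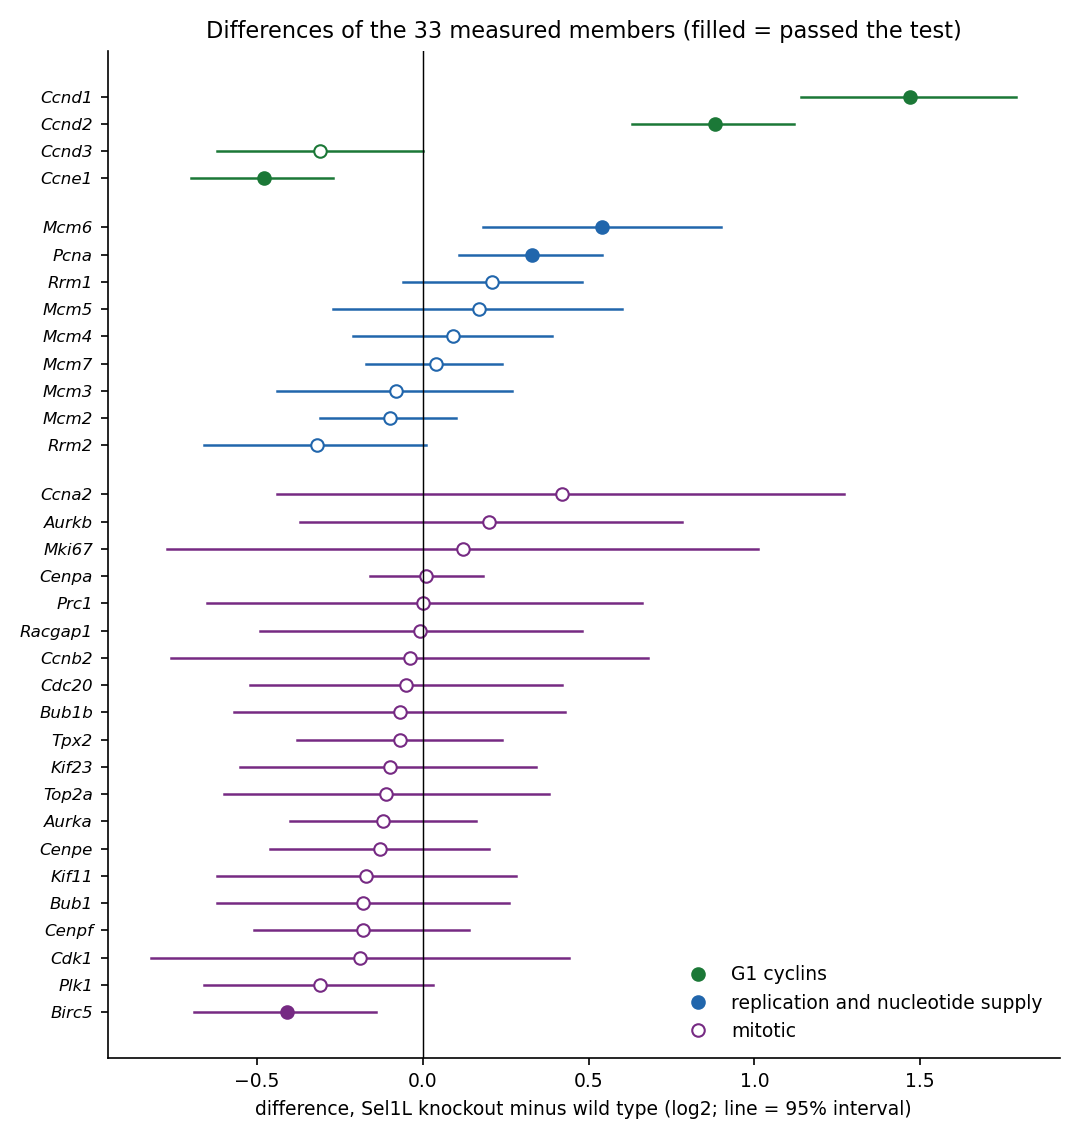
Difference between Sel1L knockout and wild type (log2, horizontal axis) for each of the 33 measured genes, in green for G1 cyclins, blue for replication genes and purple for mitotic genes; lines are 95% intervals and filled points passed the test. Ccnd1 stands at 1.47 and Ccnd2 at 0.88, while 19 of 20 mitotic genes have open points.

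Ccnd1, which encodes cyclin D1, rose most among the members. Its level was 9.70, 9.66, 9.89 and 9.43 on the log2 scale on knockout arrays, against 8.05, 7.90, 8.37 and 8.49 on wild type arrays. Every knockout value lay above every wild type value. The difference was 1.47 (SE 0.146, adjusted p = 0.000163), a 2.76-fold rise, with a 95% interval of 1.14 to 1.79. Ccnd2, which encodes cyclin D2, had levels of 11.29, 11.10, 11.29 and 11.21 on knockout arrays and 10.58, 10.10, 10.27 and 10.43 on wild type arrays. The groups were again apart, by 0.88 (SE 0.11, adjusted p = 0.000528), a 1.84-fold rise. Both calls held under each of the 3 other normalizations between arrays and without each array in turn, where the difference of Ccnd1 ranged from 1.36 to 1.56 and that of Ccnd2 from 0.80 to 0.96. Of the 6 endothelial markers, all measured, 4 also rose, and their mean was 7.45 to 7.72 on knockout arrays and 7.14 to 7.34 on wild type arrays. The 6 ductal markers measured of 8, of which 2 rose, averaged 8.49 to 8.61 on knockout arrays and 8.12 to 8.45 on wild type arrays. Of the ductal differences 5 were positive, and that of Sox9 was -0.32 and did not pass. Of the 7 acinar markers 4 fell. The share called was 66.7% for endothelial, 33.3% for ductal and 57.1% for acinar markers, against 28.7% of all genes. The part of these cell types in the levels of the D cyclins was not tested.

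The remaining D cyclin and the E cyclin measured did not rise. Ccnd3, which encodes cyclin D3, had levels of 7.86, 8.12, 8.20 and 8.16 on knockout arrays and 8.00, 8.44, 8.50 and 8.63 on wild type arrays. The groups overlapped through wild type replicate 1, and the difference of -0.31 did not pass the test (SE 0.139, adjusted p = 0.12). It passed without that array (-0.44, adjusted p = 0.019), after quantile normalization (-0.43, 0.0393), after cyclic loess (-0.44, 0.0333) and with the replicate number as a block (-0.31, 0.0472). Ccne1, which encodes cyclin E1, had levels of 4.68, 4.69, 4.55 and 4.94 on knockout arrays and 5.24, 5.11, 5.16 and 5.30 on wild type arrays. All knockout values were below all wild type values, with a difference of -0.48 (SE 0.0966, adjusted p = 0.00591), a 1.4-fold fall.

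Differences between genes on the same array cancel a constant shift of that array, though not the other effects of quantile or loess scaling. The 4 G1 cyclins were set against each other in this way in 6 pairs, chosen after the data had been seen. Ccnd1 moved by 1.78 more than Ccnd3 between the groups, and Ccnd2 by 1.19 more than Ccnd3. Ccnd1 moved by 0.59 more than Ccnd2 and by 1.95 more than Ccne1, and Ccnd2 by 1.36 more than Ccne1. In these 5 pairs the groups did not overlap (exact two-sided permutation p = 0.0286 each, the smallest that 4 against 4 can give, and 0.0343 after adjustment over the 6 pairs). For the pairs of Ccnd1 and Ccnd2 with Ccne1 this was fixed in advance, since each gene alone was apart, in opposite directions. For their pairs with Ccnd3 it was fixed as well, since the ranges of the single genes left no room for overlap. Of the pairs without overlap, only that of Ccnd1 with Ccnd2 could have come out otherwise. The 6 pairs share genes, so these p-values are not independent of each other or of the single-gene calls. Between Ccnd3 and Ccne1 the difference was 0.17, within the spread of the arrays (exact permutation p = 0.486, adjusted p = 0.486).

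**Figure D3:**
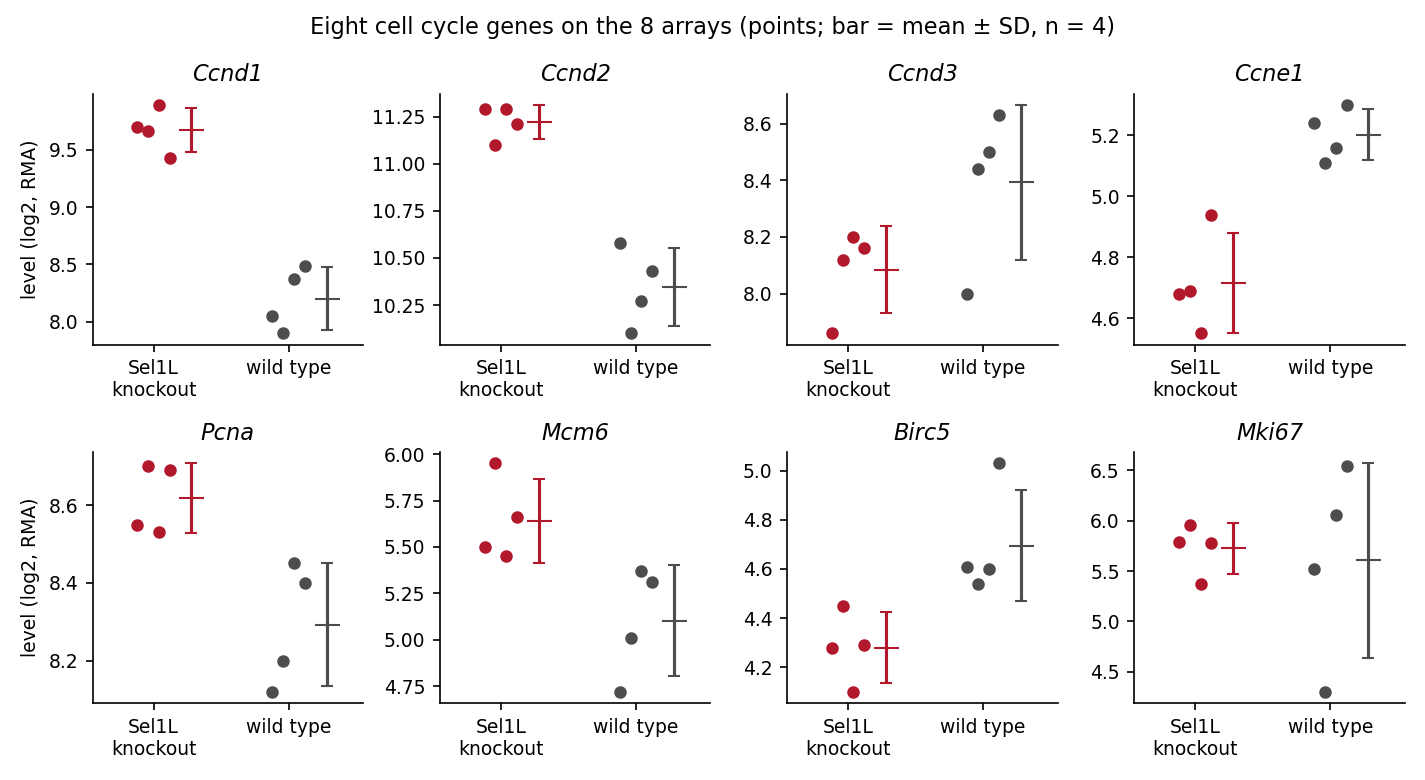
Levels of 8 cell cycle genes (log2, vertical axes, each panel with its own range) on the 4 Sel1L knockout arrays (red, left) and the 4 wild type arrays (grey, right); points are arrays and bars are mean ± SD. The groups are apart for Ccnd1, Ccnd2, Ccne1, Pcna, Mcm6 and Birc5 and overlap for Ccnd3 and Mki67, where wild type replicate 2 is the lowest point at 4.30.

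Among the replication genes, the sliding clamp and 1 helicase subunit rose, by 0.33 and 0.54 on the log2 scale. Pcna, which encodes the clamp that holds DNA polymerase on its template and also serves DNA repair, had levels of 8.55, 8.70, 8.53 and 8.69 on knockout arrays and 8.12, 8.20, 8.45 and 8.40 on wild type arrays. The groups did not overlap, and the difference was 0.33 (SE 0.0958, adjusted p = 0.0309), a 1.25-fold rise. The other feature annotated to Pcna alone gave 0.35 (adjusted p = 0.0152 when every feature was tested by itself); mouse Pcna has processed copies in the genome, and whether these features read them was not tested. Mcm6, a subunit of the MCM2-7 helicase that opens the double helix, had levels of 5.50, 5.95, 5.45 and 5.66 on knockout arrays and 4.72, 5.01, 5.37 and 5.31 on wild type arrays. Its difference was 0.54 (SE 0.161, adjusted p = 0.0334), a 1.45-fold rise, with a narrow gap between the lowest knockout and the highest wild type value.

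Neither call was firm. After quantile normalization, centring each array on its median and cyclic loess the differences kept their direction but missed the threshold, at 0.22, 0.25 and 0.19 for Pcna (adjusted p = 0.094, 0.0882 and 0.15) and 0.44, 0.46 and 0.49 for Mcm6 (0.0955, 0.0589 and 0.0634). The call of Pcna was also lost with the replicate number as a block (adjusted p = 0.0534) and without wild type replicate 1 (0.27, 0.0675) or 2 (0.29, 0.0666) or knockout replicate 2 (0.30, 0.0816), 3 (0.35, 0.0505) or 4 (0.30, 0.0796). That of Mcm6 was lost without wild type replicate 1 (0.41, 0.0704) or 2 (0.51, 0.0646) or knockout replicate 2 (0.44, 0.0862) or 4 (0.53, 0.0746).

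The other 7 replication genes did not pass the test, with differences between -0.32 and 0.21. Mcm2, another helicase subunit, had levels of 6.37, 6.61, 6.43 and 6.58 on knockout arrays and 6.47, 6.59, 6.59 and 6.75 on wild type arrays, a difference of -0.10 with a 95% interval of -0.31 to 0.10. The helicase subunits did not share a direction: Mcm3 (-0.08), Mcm4 (0.09), Mcm5 (0.17) and Mcm7 (0.04) had intervals that all held 0. Rrm2, the S-phase subunit of ribonucleotide reductase, which makes deoxynucleotides, had levels of 6.03, 6.59, 6.06 and 6.58 on knockout arrays and 6.65, 6.55, 6.54 and 6.81 on wild type arrays. The groups overlapped, and the difference was -0.32 (SE 0.149, adjusted p = 0.127), which passed the test after quantile normalization (-0.49, adjusted p = 0.0457). Rrm1, the large subunit of the same enzyme, differed by 0.21 (SE 0.119, adjusted p = 0.204).

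Of the 20 mitotic genes, Birc5 was lower on the knockout arrays and the other 19 did not pass the test. Birc5, which encodes survivin, a subunit of the chromosomal passenger complex, had levels of 4.28, 4.45, 4.10 and 4.29 on knockout arrays and 4.61, 4.54, 4.60 and 5.03 on wild type arrays. The groups did not overlap, but the highest knockout value lay close to the lowest wild type value. The difference was -0.41 (SE 0.123, adjusted p = 0.0327), a 1.33-fold fall. Birc5 missed the threshold after cyclic loess (-0.35, adjusted p = 0.0849) and when single arrays were left out: wild type replicate 4 (-0.30, 0.0513), which held the highest value, or knockout replicate 1 (-0.41, 0.0657), 3 (-0.35, 0.0919) or 4 (-0.42, 0.0684).

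Mki67, which encodes the Ki-67 antigen, had levels of 5.79, 5.96, 5.37 and 5.78 on knockout arrays and 5.52, 4.30, 6.06 and 6.54 on wild type arrays. The knockout values lay within the wild type range, and the difference of 0.12 had a 95% interval of -0.77 to 1.01 (adjusted p = 0.833). Cdk1, the kinase that starts mitosis, had levels of 5.59, 5.74, 5.43 and 5.45 on knockout arrays and 5.38, 5.05, 5.94 and 6.60 on wild type arrays, a difference of -0.19 (interval -0.82 to 0.44, adjusted p = 0.629). Top2a, the topoisomerase that untangles replicated DNA, had levels of 5.11, 4.95, 4.70 and 4.99 on knockout arrays and 5.10, 4.42, 5.04 and 5.64 on wild type arrays, a difference of -0.11 (interval -0.60 to 0.38, adjusted p = 0.715). For these 3 genes the knockout arrays fell inside the span of the wild type arrays.

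The other 16 mitotic genes had differences between -0.31 and 0.42. The cyclin genes Ccna2 and Ccnb2 differed by 0.42 (SE 0.382) and -0.04 (SE 0.322). The spindle kinase genes Aurka, Aurkb and Plk1 differed by -0.12, 0.20 and -0.31, and the checkpoint genes Bub1 and Bub1b by -0.18 and -0.07. Cdc20, an activator of the anaphase-promoting complex, differed by -0.05. Among centromere genes, Cenpa, the centromeric histone, had the narrowest interval (0.01, from -0.16 to 0.18), while Cenpe and Cenpf differed by -0.13 and -0.18. The motor and spindle genes Kif11, Kif23, Tpx2, Prc1 and Racgap1 differed by -0.17, -0.10, -0.07, 0.00 and -0.01.

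The mitotic genes varied together from array to array. Their mean level was 4.80, 4.96, 4.55 and 4.85 on knockout arrays and 4.75, 4.32, 5.06 and 5.31 on wild type arrays. Among knockout arrays, replicate 3 held the lowest value for 18 of the 20 genes and replicate 2 the highest for 14. Among wild type arrays, replicate 2 held the lowest for 17 and replicate 4 the highest for 15. Over all genes, each of these arrays held that same extreme for 21.3% to 25.5% of genes. The SD between arrays was larger in wild type than in knockout for 18 of the 20 (90%), against 68.4% of all genes, with a median SD of 0.186 in knockout and 0.46 in wild type.

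Some markers of other cell types were also lowest on wild type replicate 2. The mean of the 10 macrophage markers, all measured, was 7.49 to 8.55 on knockout arrays and 8.14, 6.24, 8.75 and 8.02 on wild type arrays, lowest on wild type replicate 2. The 9 markers of stellate cells and fibroblasts, all measured, averaged 7.99 to 8.79 on knockout arrays and 8.35, 7.19, 8.77 and 8.57 on wild type arrays. The 8 T and B cell markers measured of 9 averaged 3.76 to 4.09 on knockout arrays and 3.82 to 4.19 on wild type arrays. The 4 erythroid markers measured of 5 averaged 3.98 to 4.26 on knockout arrays and 4.43 to 4.85 on wild type arrays, highest on wild type replicate 4. None of the macrophage or fibroblast markers was called between the groups. Cd8a among the T and B cell markers (12.5% called) was lower, by 0.49 (adjusted p = 0.0467). Slc4a1 among the erythroid markers (25% called) was lower, by 0.64 (adjusted p = 0.00379). Of all genes 28.7% were called. In whole tissue, fewer dividing cells and less RNA per cell cannot be told apart, and the part of these cell types in the mitotic levels was not tested. On knockout arrays replicate 3 was lowest for the macrophage (7.49), fibroblast (7.99) and T and B cell (3.76) means and for the mitotic mean (4.55), while replicate 1 was highest for the 3 marker lists (8.55, 8.79 and 4.09) and replicate 2 for the mitotic genes (4.96).

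Without wild type replicate 2 the mean of the mitotic genes was 4.79 on knockout and 5.04 on wild type arrays, and the difference in means was -0.25 in place of -0.07. Then 18 of the 20 genes had negative differences, and 3 were called lower: Birc5, Plk1 (-0.44, adjusted p = 0.0409) and Cdc20 (-0.29, adjusted p = 0.0486). Over all genes 25.4% were called without that array, with 2031 of 18820 lower. Leaving out wild type replicate 4 instead moved the mitotic genes the other way, to a median difference of 0.06 with 0 called lower, in place of a median of -0.28 without replicate 2. Mki67 turned to -0.31 without wild type replicate 2 (adjusted p = 0.321) and was 0.43 without wild type replicate 4 (adjusted p = 0.388). The macrophage and fibroblast means without wild type replicate 2 differed by -0.44 and -0.35.

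**Figure D4:**
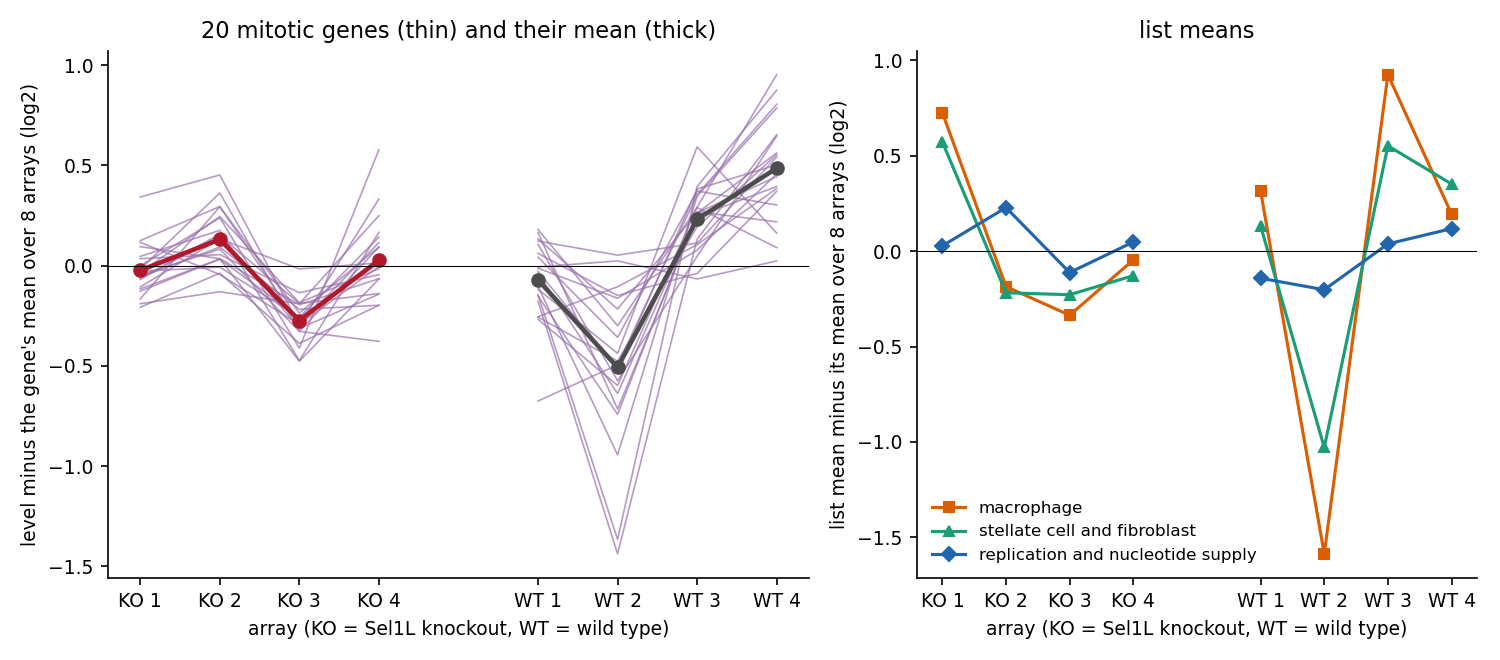
Left, level of each of 20 mitotic genes minus its mean over the 8 arrays (log2, thin lines) with their mean (thick line, red for Sel1L knockout, grey for wild type); right, the same for the means of macrophage, fibroblast and replication gene lists. Wild type replicate 2 is the lowest of its group in both panels, with a mitotic mean of 4.32 and a macrophage mean of 6.24.

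Among genes that brake the cycle, Cdkn1a changed most. In the checkpoint and DNA damage list 8 of 16 measured genes rose and 3 fell (68.8% called). Of 7 CDK inhibitors 2 rose and 0 fell (28.6% called). Over all genes 28.7% were called, 16.1% higher and 12.6% lower, so the CDK inhibitors were called about as often as genes at large. Both lists were chosen with earlier results of these data known, so their shares called are not independent support. Cdkn1a, which encodes p21, rose by 2.26 (SE 0.239, adjusted p = 0.000215), a 4.81-fold rise. Its levels were 10.80, 10.61, 10.90 and 11.19 on knockout arrays and 8.16, 8.39, 9.37 and 8.52 on wild type arrays, with no overlap. Cdkn1b, which encodes p27, rose by 0.50 (SE 0.0719, adjusted p = 0.00111). Cdkn2a (-0.17), Cdkn2b (-0.12), Cdkn2c (0.22), Cdkn2d (0.05) and Cdkn1c (-0.02) did not pass the test. The list medians were 0.38 for the checkpoint genes and 0.05 for the CDK inhibitors, against -0.04 for all genes.

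Ccng1, which encodes cyclin G1, a p53 target, rose by 0.90 (SE 0.0819, adjusted p = 0.000105), and Atr, a kinase that senses stalled replication, rose by 0.69 (SE 0.107, adjusted p = 0.00167). Gadd45b, a stress-induced gene, fell by 1.05 (SE 0.133, adjusted p = 0.000578), and Btg1, an antiproliferative gene, fell by 0.68 (SE 0.0879, adjusted p = 0.000626). Besides Ccng1 and Atr, the kinase genes Atm, Chek1 and Chek2, the p53 ligase gene Mdm2, Gadd45a and Ccng2 rose, by 0.38 to 0.62, and Plk2, a polo-like kinase gene, fell by 1.45. The count of 8 higher checkpoint genes was the same under each of the 3 other normalizations and without wild type replicate 2, and ranged from 8 to 9 when each array was left out.

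**Figure D5:**
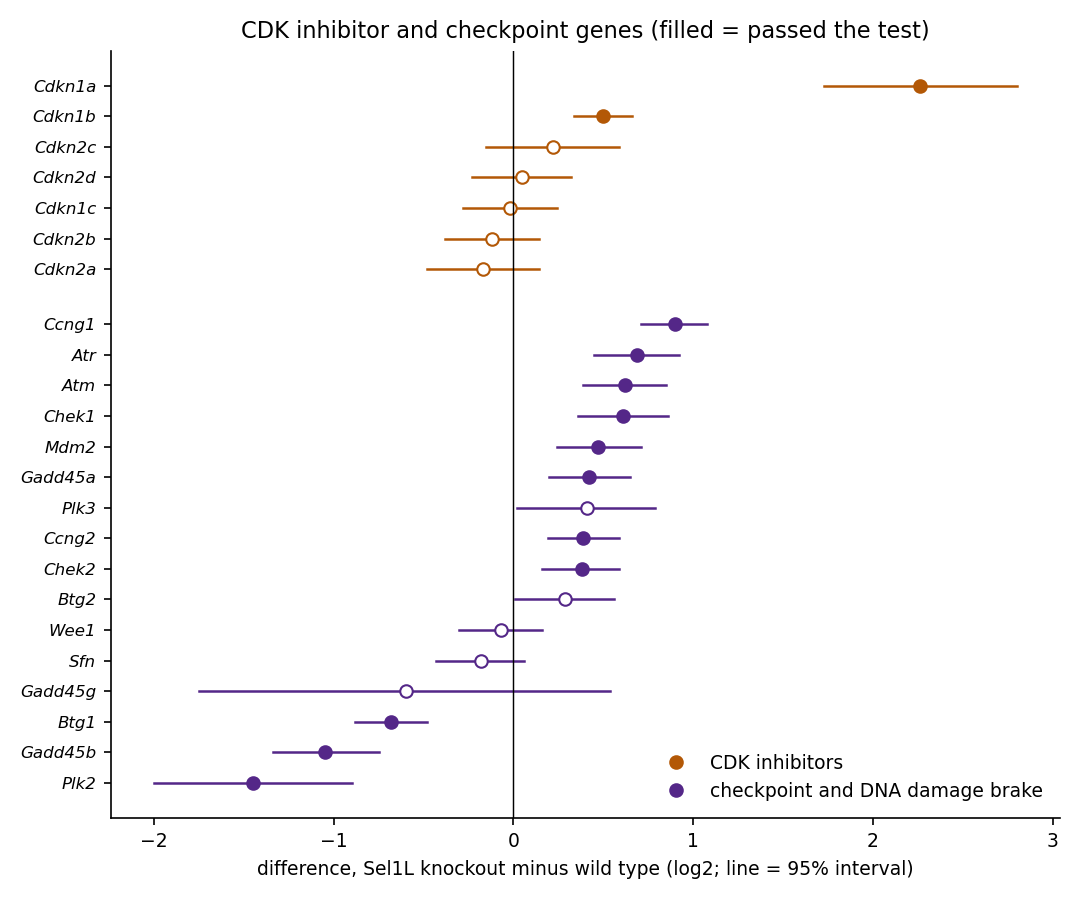
Difference between Sel1L knockout and wild type (log2, horizontal axis) for 7 CDK inhibitor genes (orange) and 16 checkpoint and DNA damage genes (violet); lines are 95% intervals and filled points passed the test. Cdkn1a lies farthest to the right at 2.26 and Plk2 farthest to the left at -1.45.

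Upstream of replication, the calls went both ways. Among 24 genes of G1 kinases, pocket proteins and E2F factors, 2 rose and 4 fell, with a median of -0.04. That is 25% called, against 28.7% of all genes, and the median is that of all genes. E2f1 and E2f2, activator E2F genes, fell by 0.42 (SE 0.0993, adjusted p = 0.0124) and 0.49 (SE 0.122, adjusted p = 0.0159). Tfdp2, a dimer partner of E2F, fell by 0.48 (SE 0.118, adjusted p = 0.0146), and Mycn, a MYC family gene, fell by 0.79 (SE 0.092, adjusted p = 0.000358). Cdk4, the kinase partner of D cyclins, and Lin54, the DREAM subunit that binds the CHR, were the 2 that rose, by 0.29 and 0.30. Neither of those rises passed under any of the 3 other normalizations, where 6 to 8 genes of the list were called lower. Rb1, which encodes the retinoblastoma protein, differed by 0.05 and did not pass.

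Of 40 listed genes of replication origins and forks, 37 were measured, with 8 called higher, 1, Cdc7, called lower and a median of 0.13. Calls over all genes also leaned higher, at 16.1% against 12.6% lower. Rpa2, a subunit of the complex that coats single-stranded DNA, rose by 0.85 (SE 0.0925, adjusted p = 0.000256). Orc5 and Orc3, subunits of the origin recognition complex, rose by 0.75 (SE 0.0954, adjusted p = 0.000569) and 0.53 (SE 0.0738, adjusted p = 0.00096). Gins4, a subunit of the active helicase, rose by 0.50 (SE 0.0862, adjusted p = 0.00291). The number higher was between 5 and 7 under the 3 other normalizations. Cdc7 averaged 3.46 on knockout and 3.84 on wild type arrays, no higher than the 95th percentile of the receptor genes, 3.84. The number lower was 0 after cyclic loess and without knockout replicate 3, and 2 after quantile normalization and after median centring. Of these 37 genes 24.3% were called, against 28.7% of all genes.

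A further 41 mitotic genes outside the members had 1 higher and 3 lower (9.76% called) and a median of -0.07. Over all genes 28.7% were called, with a median of -0.04. Spc24, a kinetochore gene, fell by 0.53 (SE 0.0769, adjusted p = 0.00113). Troap, a gene of spindle assembly, fell by 0.44 (SE 0.0931, adjusted p = 0.00752), and Kif2c, a microtubule-depolymerizing kinesin gene, fell by 0.48 (SE 0.115, adjusted p = 0.0137), a call lost after cyclic loess (-0.36, adjusted p = 0.0583). Pttg1, which encodes securin, rose by 0.49 (SE 0.15, adjusted p = 0.0371), and lost its call under the 3 other normalizations (0.33 to 0.41), with the replicate block (adjusted p = 0.073) and without wild type replicate 4 (0.0701) or knockout replicate 1 (0.0589), 2 (0.094), 3 (0.0556) or 4 (0.0884). Kif2c averaged 3.49 on knockout and 3.97 on wild type arrays, close to the level of the receptor genes.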

How the data were processed

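The deposited table held 35556 features on 8 arrays as log2 values made with RMA (robust multi-array average) by the authors, per the submitters' processing notes. Neither its version nor its probe definition, nor which arrays shared a normalization, is given in the sources used here, and the log base was taken from RMA and the range of the values (0.964 to 14.4). GEO's platform annotation gave 1 symbol for 21218 features, several for 1881 and none for 12457; 2398 lower features of genes with several were left out, which left 18820 genes, with no filter on dim ones. Knockout minus wild type was estimated by lmFit and eBayes of limma 3.58.1 (6 residual degrees of freedom) in R 4.3.3 over all genes, with Benjamini-Hochberg adjustment and a threshold of 0.05; exact two-sided permutation tests used all splits of 4 against 4. The arrays' number limits the precision. The fitting code was also run on simulated arrays with known differences. Their noise was independent between genes, so that run does not cover the shared variation between genes seen here.

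The members and lists were chosen with earlier results of these data known. Named genes were all called members, a fixed set of members, and the up to 4 called genes of each pathway list with the smallest p; others named were chosen after their values were seen. Alternatives were quantile normalization, centring on array medians, cyclic loess, genes above the median level only, the mean of a gene's features, every feature by itself, trend and robust variance, array weights, the replicate number as a block, and dropping arrays in turn. The pairs of G1 cyclins and the counts of pathway genes under these alternatives were added after seeing the data. Promoter windows came from RefSeq, GRCm38.p6, and figures from matplotlib 3.10.9 in Python 3.11.15.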

Additional observations from a re-analysis of the deposited data

Results flagged for a closer look

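Single arrays that stood far from the other 3 of their group were looked for in 54 genes and list means, in 108 groups of 4 by Dixon's test, which chance passes in about 1 of 20 groups. There were 6. Ccna2 was 5.34 in Sel1L knockout replicate 3, against 5.97 to 6.09 in the other knockout arrays, and Cenpe was 3.34 in knockout replicate 4, against 2.90 to 2.96. Orc3 was 8.76 in knockout replicate 2, against 8.73 to 8.74, a gap of no practical size. Birc5 was 5.03 in wild type replicate 4, where the other wild type arrays had 4.54 to 4.61. E2f2 was 5.41 in wild type replicate 2, against 4.94 to 5.00, and Kif2c was 3.80 in wild type replicate 1, below the other wild type arrays.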

How the results depend on the processing

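The 2 rises among G1 cyclins were called under each alternative in which they were tested. G1 cyclins called lower, 1 as reported, numbered 2 after quantile normalization, after cyclic loess and with the replicate block, 0 among genes above the median level, where Ccne1 was not tested, and 1 to 2 when single arrays were left out. The median of the mitotic genes ranged from -0.28 to 0.06 over the arrays left out. The median of the G1 cyclins was 0.88 among genes above the median level, which left out Ccne1. Replication genes called higher, 2 as reported, numbered 0 after quantile normalization, median centring and cyclic loess, and 1 with the replicate block. They numbered 1 if dim genes were left out, where Mcm6 was not tested, and 0 to 2 when single arrays were left out. Replication genes called lower numbered 1 after quantile normalization and 0 otherwise. Mitotic genes called lower, 1 as reported, numbered 0 after cyclic loess and 0 to 3 when single arrays were left out. They numbered 0 among genes above the median level, where Birc5 was not tested. The difference of Mki67 turned to -0.06 with array weights. Leaving out single arrays, it ranged from -0.31 to 0.43, that of Top2a from -0.32 to 0.08 and that of Cdk1 from -0.42 to 0.10. Higher genes made up 56.0% of all calls as deposited, 42.9% after quantile normalization, 36.3% after median centring, 48.1% after cyclic loess and 72.2% among genes above the median level. The labels do not say whether same-numbered arrays belong together. The deviations of same-numbered arrays from their group means correlated at 0.222, 0.153, -0.273 and -0.0195, which can neither show nor exclude a pairing. With the replicate block 4678 genes were called in place of 5406. Members near the level of the receptor genes have little signal over background, which limits what these arrays can show for them. The cause of these changes was not tested.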

Other observations

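Features left out of the comparison because a brighter one existed were read for the 4 members with several. The remaining feature of Kif11 had a mean level of 2.94 and a difference of 0.09, and that of Prc1 a level of 2.99 and a difference of -0.14. For Top2a the remaining features had levels of 1.92 and 2.06 and differences of 0.03 and -0.09. Each of these lay below the 95th percentile of the receptor genes, 3.84, and none passed the test (adjusted p = 0.369 to 0.809). The remaining feature of Pcna had a level of 8.45, close to the 8.46 of the feature used.

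The replication genes followed the mitotic genes in part in their order on knockout arrays. Replicate 2 held the highest knockout value for 8 of the 9 replication genes and replicate 3 the lowest for 5. On wild type arrays replicate 1 held the lowest value for 4 of the 9 and replicate 2 for 3, and replicate 4 held the highest for 5 and replicate 3 for 4. Over all genes, knockout replicate 2 was highest for 25.5% and replicate 3 lowest for 23.5%, wild type replicates 1 and 2 were lowest for 24.8% and 25.1%, and wild type replicates 3 and 4 highest for 23.3% and 21.3%.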
